A study of Homo sapiens with 7 samples.

Results

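ENAH and 9 other genes whose proteins assemble actin filaments were followed by mRNA sequencing through a K562 dasatinib dose escalation. The members were ENAH, VASP and EVL of the Ena/VASP family, WAS, WASL, WASF1 and WASF2 of the WASP family, and the formins DIAPH1, DIAPH2 and DIAPH3. They are 10 of the 25702 genes in the counts table. ENAH was chosen by its measured RNA, higher in the DasR lines than in the controls, and the other members by family, so the level of ENAH is described here without a test.

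All 7 libraries came from K562, an established, BCR::ABL1-positive line from chronic myeloid leukemia that the submitters label as erythroblast. The 2 control lines were drug naive K562 and K562 kept in DMSO vehicle. The DasR lines were sampled along 1 culture under rising dasatinib, an inhibitor of the ABL1 and SRC family kinases. The lines at 10, 15 and 25 nM form the early stage group and those at 50 and 200 nM the late stage group, a grouping the study took from clustering of the same libraries. Each line was sequenced once, so the lines of a group stand in as its replicates, the spread within a group includes dose, and p-values measure the spread between these lines. The stage of a line, its dose and its time under drug cannot be told apart. The drug naive library held 21007761 counts and the DMSO library 24037893. There were 27808639, 27844799 and 20059656 in the 10, 15 and 25 nM DasR lines, and 20827519 and 21588772 in the 50 and 200 nM DasR lines. At these depths 3 counts correspond to between 0.108 and 0.150 CPM, the count scaled to library size, which is not corrected for the length of a gene.

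Cells move and change shape by adding actin monomers to the growing ends of filaments. Ena/VASP proteins sit at those ends, keep capping proteins away and pass on profilin-bound actin, and ENAH (also called Mena) is the vertebrate relative of Drosophila Enabled, a gene found through its genetic interaction with Abl. WASP family proteins switch on the Arp2/3 complex, which starts new filaments as branches on old ones, and formins start and lengthen unbranched filaments once small GTPases have opened them. In blood cells WAS is the family member lost in Wiskott-Aldrich syndrome, and DIAPH1 is a widely expressed formin.

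ENAH RNA was low in both controls and high in every DasR line. Drug naive cells gave 129 counts and DMSO cells 130, against 4257, 5186 and 4009 in the 10, 15 and 25 nM DasR lines and 3170 and 3343 in the 50 and 200 nM DasR lines. As CPM these were 6.14 and 5.41 in the controls, 153, 186 and 200 in the early stage lines, and 152 and 155 in the late stage lines. The lowest DasR line lay far above the higher control, and the early and late stage lines overlapped each other. Mean CPM was 5.77 ± 0.518 (SD, n = 2) in the controls, 179.7 ± 24.1 (n = 3) in the early stage lines and 153.5 ± 1.87 (n = 2) in the late stage lines, or 31.1-fold and 26.6-fold the control mean. The log2 fold change fitted by edgeR was 4.94 (standard error 0.16) for early stage and 4.71 (0.17) for late stage against control, and -0.23 (0.13) for late against early stage. ENAH passed the filter of 10 CPM in at least 2 libraries only through the DasR lines. In bulk RNA, more cells that make ENAH cannot be told apart from more ENAH RNA in each cell.

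**Figure D1:**
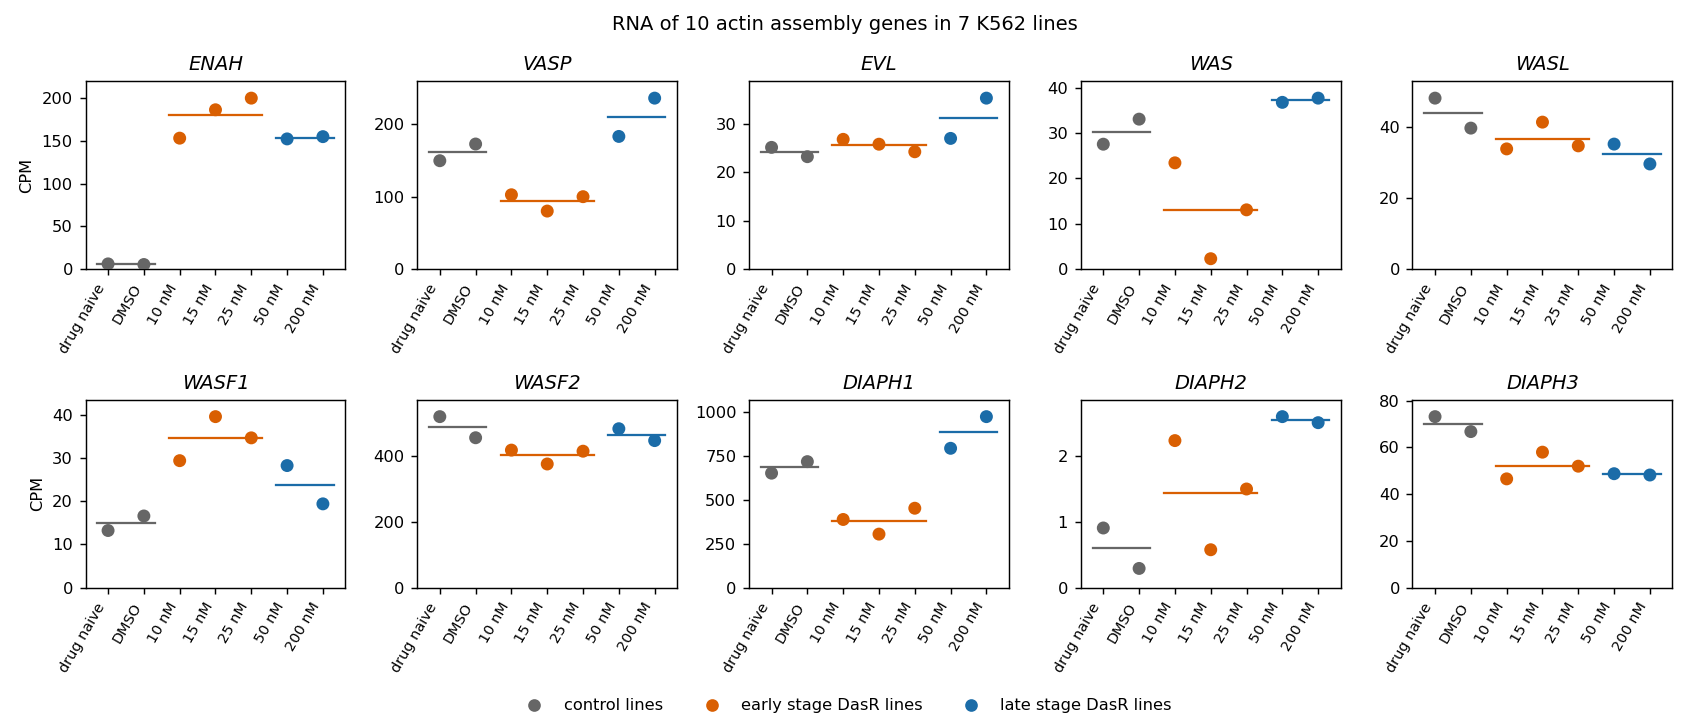
RNA of the 10 actin assembly genes as CPM (vertical axis, from 0 and scaled to each gene) in the 7 K562 lines (horizontal axis). Points are libraries, colors mark control, early stage and late stage lines, and horizontal bars are group means. ENAH stood at 6.14 and 5.41 CPM in the controls and at 152 CPM or more in every DasR line, and VASP and DIAPH1 were below both controls in the early stage lines and above both in the late stage lines.

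The Ena/VASP proteins share a first domain, and their coding sequences could be compared at its start. ENAH (NCBI gene 55740) lies on the minus strand at chr1:225674467-225840844 of GRCh37 (the same build as hg19), VASP (gene 7408) on the plus strand at chr19:46009837-46030247, and EVL (gene 51466) on the plus strand at chr14:100437786-100610573. The sequences below are 75 coding bases, 5′ to 3′, from the GENCODE version 44 canonical transcripts lifted to GRCh37, starting at codon 2 of ENAH and VASP and codon 4 of EVL. They are shown because similar genes could trade reads, and capitals mark the 39 bases that are identical in all 3 genes.
ENAH: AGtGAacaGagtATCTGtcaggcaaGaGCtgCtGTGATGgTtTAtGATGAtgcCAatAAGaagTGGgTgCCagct
VASP: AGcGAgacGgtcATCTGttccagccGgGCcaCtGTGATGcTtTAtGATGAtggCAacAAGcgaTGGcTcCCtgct
EVL: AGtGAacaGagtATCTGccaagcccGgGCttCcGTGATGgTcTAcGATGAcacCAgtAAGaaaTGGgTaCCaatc

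Over this stretch ENAH shared 58 of 75 bases with EVL and 49 with VASP, and VASP and EVL shared 43. Over whole canonical transcripts, the longest run of identical bases between any of the 45 pairs of members was 23 bases (ENAH with EVL), shorter than the 75-base reads. Matches with mismatches and matches to genes outside the members were not examined, and sharing of reads was not tested. Coding sequence made up 13.1% of the canonical ENAH transcript (1710 of 13092 bases), 50.8% for VASP and 68.4% for EVL, so most of the ENAH transcript lies outside the coding part.

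VASP and EVL had other patterns. VASP, the family member first described as a kinase substrate in platelets, had 149 CPM in drug naive and 172 in DMSO cells, 103, 80.1 and 99.9 in the 10, 15 and 25 nM lines, and 183 and 236 in the 50 and 200 nM lines. Every early stage line was below both controls and every late stage line above both. The log2 fold change was -0.79 (SE 0.15) for early stage against control, with an FDR of 0.00520 (edgeR's quasi-likelihood F-test, Benjamini-Hochberg adjusted over the 10452 genes tested). This is just short of the study's threshold of 0.005, and it passed 0.005 without either late stage line, in a fit of the 5 control and early stage libraries alone, by DESeq2 and by limma voom. Late stage against control gave 0.36 (0.16, FDR = 0.129) by the same edgeR test, and late against early stage gave 1.14 (0.15, FDR = 0.0167). EVL, which is enriched in blood and neural cells, stayed between 23.2 and 35.3 CPM, with 25.1 and 23.2 in the controls, 26.8, 25.8 and 24.2 in the early stage lines, and 27.0 and 35.3 in the late stage lines. Its edgeR log2 fold changes were 0.067 (0.14, FDR = 0.717) and 0.34 (0.15, FDR = 0.122) against control.

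Because ENAH transcripts are long (13.172 kb of exon in the deposited annotation, against 2.291 kb for VASP and 1.842 kb for EVL), the family was also set side by side as CPM per kb of exon. ENAH was 0.587% and 0.465% of the family's summed CPM per kb in the drug naive and DMSO lines. It was 16.4%, 22.4% and 21.1% in the 10, 15 and 25 nM lines, and 10.9% and 8.79% in the 50 and 200 nM lines. VASP remained the largest share in every line, at 82.2% and 85.3% in the controls, 63.1%, 55.4% and 60.6% in the early stage lines, and 75.3% and 76.9% in the late stage lines. Per kb, VASP was 139.9 and 183 times ENAH in the controls, between 2.47 and 3.85 times in the early stage lines, and 6.91 and 8.75 times in the late stage lines. The shares of ENAH in early and late stage lines did not overlap although those of ENAH CPM did, and VASP was lower in the early stage lines.

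**Figure D2:**
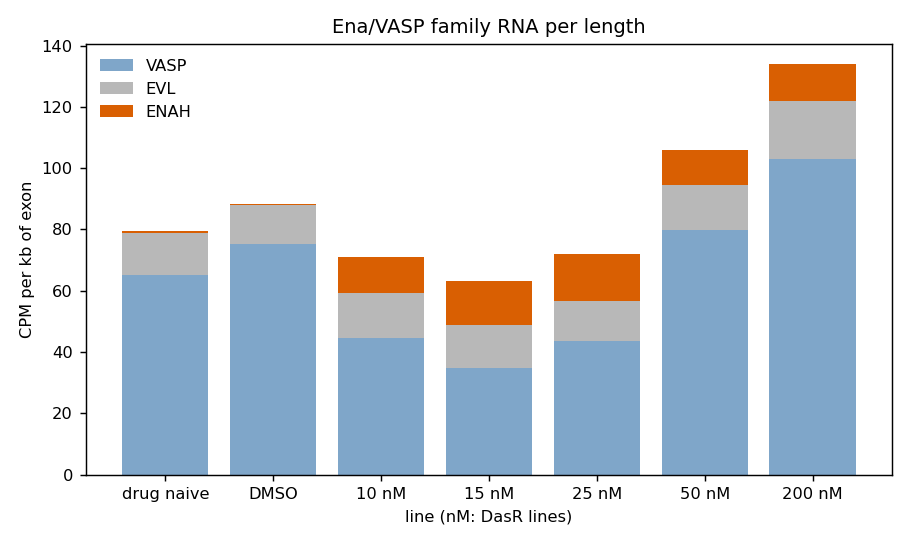
Summed RNA of VASP, EVL and ENAH as CPM per kb of exon (vertical axis, stacked from 0) in each of the 7 lines (horizontal axis, 1 library each). ENAH is barely visible in the controls, at 0.466 and 0.411 CPM per kb, and stands between 11.6 and 15.2 CPM per kb in the DasR lines, while the family total is lowest at 15 nM (63.1) and highest at 200 nM (133.8).

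Of the 8 tested members besides ENAH, 1 passed an FDR of 0.005 between early stage and control lines, WASF1, which rose; 18% of the 10452 genes passed, with 7.92% of the 10452 higher. WASF1 encodes a WAVE protein that relays Rac signals to the Arp2/3 complex and is best known from brain (gene 8936, minus strand, chr6:110421022-110501207). Its CPM was 13.2 and 16.6 in the drug naive and DMSO lines, 29.4, 39.6 and 34.7 in the 10, 15 and 25 nM lines, and 28.3 and 19.4 in the 50 and 200 nM lines. All DasR lines were above both controls, as were those of 25.1% of all genes tested, and the early stage lines were above the late stage lines. The early stage mean of 34.6 ± 5.10 CPM (n = 3) was 2.32-fold that of the controls, 14.9 ± 2.38 (n = 2), with a log2 fold change of 1.20 (SE 0.21, FDR = 0.00395 by edgeR). Leaving out either control or any early stage line kept the direction but ended the call, with FDR values up to 0.0405. Late stage against control gave 0.66 (0.22, FDR = 0.0571) and late against early stage -0.54 (0.20, FDR = 0.117).

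The other WASP family members did not pass. WAS, the blood cell member (gene 7454, plus strand, chrX:48534985-48549822), had 27.5 and 33.0 CPM in the controls, 23.4, 2.30 and 13.1 in the 10, 15 and 25 nM lines, and 36.7 and 37.7 in the 50 and 200 nM lines. The 15 nM line stood out with 64 counts, against 651 at 10 nM and 262 at 25 nM. All 3 early stage lines were below both controls and both late stage lines above, but the spread within the early stage was wide (12.9 ± 10.6 CPM, n = 3), and the edgeR log2 fold changes were -1.24 (SE 0.70, FDR = 0.185) for early stage and 0.28 (0.77, FDR = 0.803) for late stage against control. Between late and early stage it was 1.51 (0.70, FDR = 0.180), and between 1.01 and 2.30 over the alternatives. The early stage value against control ranged from -2.02 (without the 10 nM line) to -0.73 (without the 15 nM line).

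WASL (N-WASP, gene 8976, minus strand, chr7:123321997-123389057) is the broadly expressed partner of WAS. It had 48.1 and 39.7 CPM in the controls, 33.8, 41.4 and 34.7 in the early stage lines, and 35.2 and 29.6 in the late stage lines. Early stage lines overlapped the controls and late stage lines lay below them, with edgeR log2 fold changes of -0.28 (0.15, FDR = 0.163) and -0.46 (0.17, FDR = 0.0670). WASF2, the WAVE protein used in most blood cells (gene 10163, minus strand, chr1:27730734-27816678), had the highest level per kb of the 4 WASP family members in every line, and its CPM was 519 and 455 in the controls, 417, 375 and 414 in the early stage lines, and 482 and 446 in the late stage lines. Its edgeR log2 fold change was -0.29 (0.11, FDR = 0.0563) for early stage, where all lines were below both controls, and -0.092 (0.12, FDR = 0.571) for late stage, where they overlapped.

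Among the formins, DIAPH1 had the pattern of VASP. DIAPH1 (gene 1729, minus strand, chr5:140894583-140998622) had 651 and 717 CPM in the controls, 388, 305 and 452 in the 10, 15 and 25 nM lines, and 793 and 973 in the 50 and 200 nM lines. Again every early stage line was below both controls and every late stage line above both. Mean CPM was 684 ± 46.4 (n = 2) in the controls, 381 ± 73.8 (n = 3) in the early stage and 883 ± 127 (n = 2) in the late stage lines. The early stage log2 fold change was -0.86 (SE 0.17), with an FDR of 0.00602 by edgeR, which missed 0.005. The change passed 0.005 by DESeq2 and limma voom, and under no other alternative at that threshold. Late stage against control gave 0.35 (0.19, FDR = 0.186) by edgeR, and late against early stage 1.20 (0.17, FDR = 0.0167).

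DIAPH3 (gene 81624, minus strand, chr13:60239717-60738062), a formin also used in cell division, was lower in every DasR line than in either control. Its CPM was 73.2 and 66.8 in the controls, 46.6, 58.0 and 52.0 in the early stage lines, and 48.8 and 48.2 in the late stage lines. The edgeR log2 fold changes were -0.44 (SE 0.11, FDR = 0.0163) and -0.55 (0.12, FDR = 0.0151), under 0.05 but not 0.005, and 23.7% of all genes tested had every DasR line below both controls. Over the alternatives they lay between -0.55 and -0.36 for early stage and between -0.66 and -0.47 for late stage. Neither stayed under 0.05 in all alternatives. DIAPH2 (gene 1730, plus strand, chrX:95939711-96859996) had only 19 and 7 counts in the controls, 62, 16 and 30 in the early stage lines, and 54 and 54 in the late stage lines. It fell under the filter of 10 CPM and was not tested, and at 2.59 and 2.50 CPM the late stage lines were above the controls (0.904 and 0.291 CPM).

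**Figure D3:**
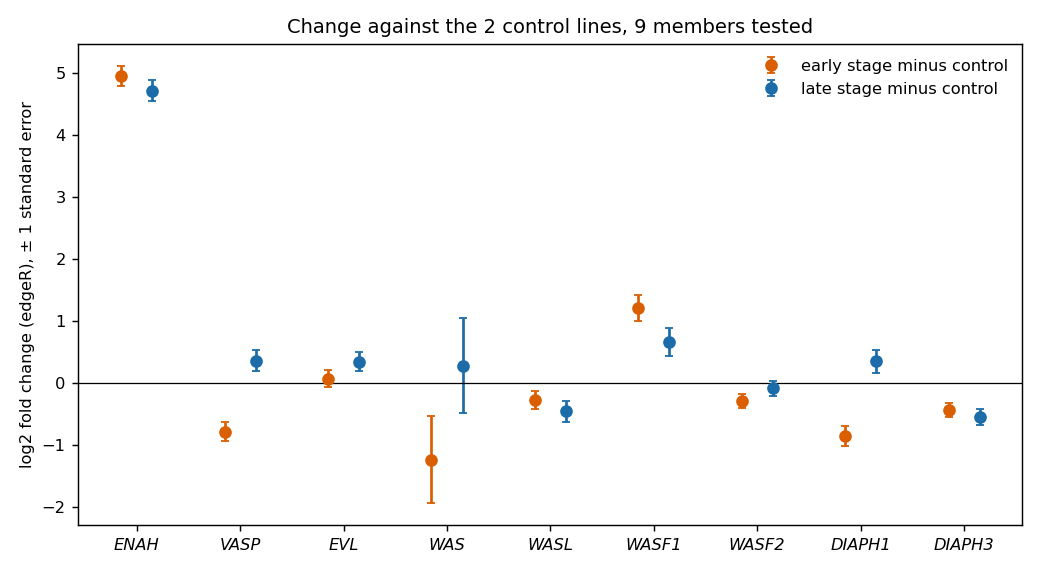
Log2 fold change against the 2 control lines (vertical axis, edgeR, bars 1 standard error) for the 9 members that passed the CPM filter (horizontal axis), for early stage lines and late stage lines. ENAH lies at 4.94 and 4.71, WASF1 at 1.20 and 0.66, and VASP and DIAPH1 are below 0 for early stage (-0.79 and -0.86) and above 0 for late stage (0.36 and 0.35).

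None of the 8 tested members besides ENAH, which has no test, passed 0.005 between late stage and control lines, where 7.98% of all genes did; DIAPH3 fell at an FDR of 0.05, where 33.9% of all genes passed (17.6% lower), and by DESeq2 at 0.005. At 0.05 the early stage held 4 of the 8 members, WASF1 higher and VASP, DIAPH1 and DIAPH3 lower, beside 46.5% of all genes (22.6% higher and 24% lower). The comparisons with control share the 2 control libraries. Over the 8 tested members besides ENAH, the median log2 fold change was -0.37 for early stage and 0.31 for late stage against control, beside medians of 0.0031 and -0.0036 over all genes tested. Early stage lines did not overlap the controls for 6 of these 8 members, 1 higher (35.9% of all genes) and 5 lower (34% of all genes). Late stage lines did not overlap the controls for 7, with 5 higher (34.3% of all genes) and 2 lower (33.4% of all genes).

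Between late and early stage lines, no gene of the 10452 passed an FDR of 0.005 by edgeR, where 3450 had an unadjusted p under 0.05, DESeq2 called 1135 genes and limma voom 0. The smallest FDR was 0.0167, shared by 129 genes, and VASP and DIAPH1 were 2 of these. At an FDR of 0.05, 12.7% of all genes were called, 6.6% higher in late stage lines, and those 2 members were the only ones called. Without the 200 nM line neither was called at 0.05 (FDR = 0.0855 for each by edgeR). Late stage lines lay above all early stage lines for 5 of the 8 members (26.8% of all genes) and below them for 1 (26.4% of all genes). The pattern of VASP, WAS and DIAPH1, with every early stage line below both controls and every late stage line above both, was shared by 213 genes, or 2.04% of those tested, and no member had the opposite pattern, seen in 1.79%.

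Levels of the members were compared with one another only per kb of exon. In the controls ENAH was the lowest of the 9 members that have a length in the deposited tables, at 0.438 ± 0.0393 CPM per kb (n = 2), below WASF1 at 4.63 ± 0.739. In the early stage lines (n = 3) the order was WASF2 (94.2 ± 5.48 CPM per kb), DIAPH1 (65.9 ± 12.8), VASP (41.1 ± 5.36), EVL (13.9 ± 0.701), ENAH (13.6 ± 1.83), WASF1 (10.7 ± 1.58), DIAPH3 (10.5 ± 1.15), WASL (8.28 ± 0.933) and WAS (7.06 ± 5.77). EVL and ENAH differed by less than their spread, as did WASF1 and DIAPH3, and WASL and WAS. In the late stage lines (n = 2) DIAPH1 came first (152.5 ± 22.0 CPM per kb), followed by WASF2 (108.7 ± 5.96) and VASP (91.4 ± 16.3), WAS (20.3 ± 0.358) and EVL (16.9 ± 3.19), and ENAH (11.7 ± 0.142) lay above DIAPH3 (9.72 ± 0.0797). WAS and EVL differed by little more than their spread. On CPM without the length, ENAH would rank 3 in the early stage lines rather than 5.

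The proteins that work with these members were described from 9 lists of 128 genes, 98 of which passed the CPM filter. Between early stage and control lines, 2 of the 98 rose and 19 were called lower at an FDR of 0.005 by edgeR, beside 7.92% and 10.1% of all genes, and their median log2 fold change was -0.22. Of the 19, CYFIP2 and CAPG passed the CPM filter only through the controls, where they are high, which leaves 17. Without the 10, 15 or 25 nM line 15, 14 and 7 list genes were called for early stage, beside 1127, 878 and 533 of all genes. Without either control, which leaves 1 control line, fewer list genes and fewer of all genes were called. Without either late stage line the early stage calls did not fall. Between late stage and control lines 2 rose and 7 were called lower, beside 3.42% and 4.56% of all genes, with a median of -0.014, and 5 of the 7 are left without CYFIP2 and SCIN, which passed the filter in that way. Without the drug naive, DMSO or 200 nM line no list gene was called by edgeR for late stage, where 30, 95 and 292 of all genes were. Without the 25 nM or the 50 nM line 2 list genes were called, not necessarily of those 9, beside 276 and 301 of all genes. At an FDR of 0.05 the late stage against control held 18 list genes higher and 15 lower, beside 16.2% and 17.6% of all genes. DESeq2 at 0.005 gave 13 of each. Between late and early stage lines none passed 0.005, but at 0.05 there were 22 higher and 3 lower in the late stage, beside 6.6% and 6.1% of all genes, and the median was 0.21. Of these calls, those of ACTB, ACTN4, TRIP10, TMOD2, CORO1B and MKL1 were each lost under at least 1 alternative. The alternatives are not given here for the other calls, which cannot be taken to have held.

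Among the 6 tested ligands and partners of Ena/VASP proteins, TES fell in both stages. TES (testin) is a LIM protein of focal adhesions and cell contacts that binds ENAH directly. It had 275 and 268 CPM in the controls, 34.4, 21.4 and 38.2 in the 10, 15 and 25 nM lines, and 68.8 and 86.2 in the 50 and 200 nM lines, so that all lines of the 3 groups were apart. The control mean was 8.68 times the early stage mean and 3.51 times the late stage mean, with edgeR log2 fold changes of -3.13 (SE 0.23, FDR = 0.000191) and -1.83 (0.26, FDR = 0.00304). The early stage call held under every alternative (FDR at most 0.00337), and the late stage call was lost when any line but that at 15 nM was left out. VCL (vinculin, an adhesion protein that recruits Ena/VASP proteins) had the highest mean CPM of the list, at 731 and 623 CPM in the controls, 467, 288 and 405 in the early stage lines, and 721 and 689 in the late stage lines, with an early stage log2 fold change of -0.82 (FDR = 0.0126 by edgeR). The list's medians were -0.51 for early stage and 0.13 for late stage.

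WASF proteins act inside a WAVE complex, and of its 7 tested partners NCKAP1 fell in the early stage and CYFIP2 was far lower in every DasR line. CYFIP2, a subunit that holds WAVE proteins inactive until Rac binds, was nearly lost from all DasR lines. It had 1438 and 494 counts in the controls (68.5 and 20.6 CPM) and between 2 and 21 counts in every DasR line (0.0997 to 0.755 CPM), with edgeR log2 fold changes of -6.76 (SE 0.73) and -6.44 (0.87). CYFIP2 passed the CPM filter only through the controls, where it is high, so no p is given for it. The controls themselves differed from each other, limma voom called neither change, and without either control CYFIP2 did not pass the filter. Its relative CYFIP1 had 110.2 and 102 CPM in the controls and between 79.6 and 136 CPM in the DasR lines. NCKAP1, the scaffold of the complex and highest of the list in mean CPM, had 299 and 292 CPM in the controls, 165, 172 and 186 in the early stage lines, and 241 and 277 in the late stage lines, a fall of -0.78 (0.094, FDR = 0.00105) in the early stage that edgeR did not call without either control. The medians of the list were -0.19 and -0.21.

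Of the 12 tested activators and chaperones of WASP proteins, 1 rose and 3 fell in early stage lines, and 1 rose and 1 fell in late stage lines. Over all genes, 7.92% rose and 10.1% fell in the early stage, and 3.42% and 4.56% in the late stage. WIPF1 encodes WIP, the chaperone that binds WAS and shields it from breakdown. It had 13.3 and 12.0 CPM in the controls, 30.7, 18.7 and 43.4 in the early stage lines, and 107 and 84.2 in the late stage lines, with edgeR log2 fold changes of 1.27 (FDR = 0.0182) and 2.90 (SE 0.37, FDR = 0.00216). Among the membrane-bending F-BAR proteins that bind WASL, FNBP1 fell in both stages, from 53.7 and 49.9 CPM to 20.7, 20.1 and 23.3 and to 22.5 and 17.9 (log2 fold changes -1.29, FDR = 0.000684 and -1.38, FDR = 0.00144 by edgeR), while FNBP1L rose in the early stage, from 25.3 and 21.8 to 55.0, 46.8 and 53.4 CPM (1.12, FDR = 0.00349). RAC2, the blood cell Rac GTPase, fell in the early stage (-1.27, FDR = 0.00362), with 193 and 135 CPM in the controls, 80.6, 53.7 and 72.0 in the early stage lines, and 136 and 163 in the late stage lines. RAC2 and FNBP1L were not called when either control or any early stage line was left out, FNBP1 lost its early stage call without the drug naive line and its late stage call without either control or the 200 nM line, and WIPF1 its late stage call without either control or either late stage line. CDC42, the GTPase that opens WAS and WASL, had the highest mean CPM of the list and stayed between 257 and 328 CPM.

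None of the 11 Arp2/3 subunits passed 0.005 against control in either stage, beside 18% of all genes for early and 7.98% for late stage. Their early stage log2 fold changes lay between -0.50 and 0.26, with a median of -0.10. ACTR2, highest of them in mean CPM, had 665 and 720 CPM in the controls, 568, 410 and 504 in the early stage lines, and 706 and 764 in the late stage lines, and its early stage change was -0.50 (FDR = 0.0211 by edgeR). The late stage median was 0.029. Of the 8 genes of the WASH complex and other nucleation promoters, JMY, a promoter that also starts filaments without Arp2/3, fell in both stages (-0.97, FDR = 0.00220 and -1.19, FDR = 0.00268 by edgeR), from 67.7 and 56.4 CPM to 36.1, 29.6 and 30.7 and to 29.5 and 25.8. Its early stage call was lost without either control or the 15 or 25 nM line, and its late stage call without either control or the 25, 50 or 200 nM line. WASH1, highest in mean CPM, had between 122 and 178 CPM, and the list's medians were 0.049 and -0.10.

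Of 10 tested branch stabilizers and Arp2/3 inhibitors, 2 fell in the early stage, where 10.1% of all genes were called lower. None passed in the late stage, where 7.98% of all genes did. GMFG, a debranching factor of blood cells, had 25.4 and 19.7 CPM in the controls, 2.23, 1.62 and 4.44 in the early stage lines, and 15.3 and 14.9 in the late stage lines, with an early stage log2 fold change of -3.07 (SE 0.38, FDR = 0.00116 by edgeR). CORO7, a coronin of the Golgi, fell by 0.69 on the log2 scale (FDR = 0.00139 by edgeR), while CORO1C, highest in mean CPM, stayed between 302 and 363 CPM. CORO2B and ARPIN were at 0 counts in every line. GMFG was not called without either control, and CORO7 without either control or the 10 or 25 nM line. The medians were -0.52 and -0.078.

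Among 7 tested formins and regulators outside the DIAPH genes, the early stage held 1 rise and 1 fall, beside 7.92% and 10.1% of all genes. FMNL1, the formin named for its expression in leukocytes, had 88.7 and 92.7 CPM in the controls, 22.6, 13.9 and 22.5 in the early stage lines, and 45.2 and 69.3 in the late stage lines, an early stage log2 fold change of -2.22 (SE 0.24, FDR = 0.000765 by edgeR). DAAM1, a formin that acts in Wnt planar polarity signaling, rose from 20.9 and 23.0 CPM to 44.6, 52.6 and 47.4 (1.12, SE 0.14, FDR = 0.00119 by edgeR). Both calls were lost when either control was left out, and that of DAAM1 also without the 25 nM line. None of the list passed in the late stage. RHOA, the GTPase that opens DIAPH formins and highest here in mean CPM, stayed between 142 and 162 CPM. The list's medians were 0.15 and 0.46.

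**Figure D4:**
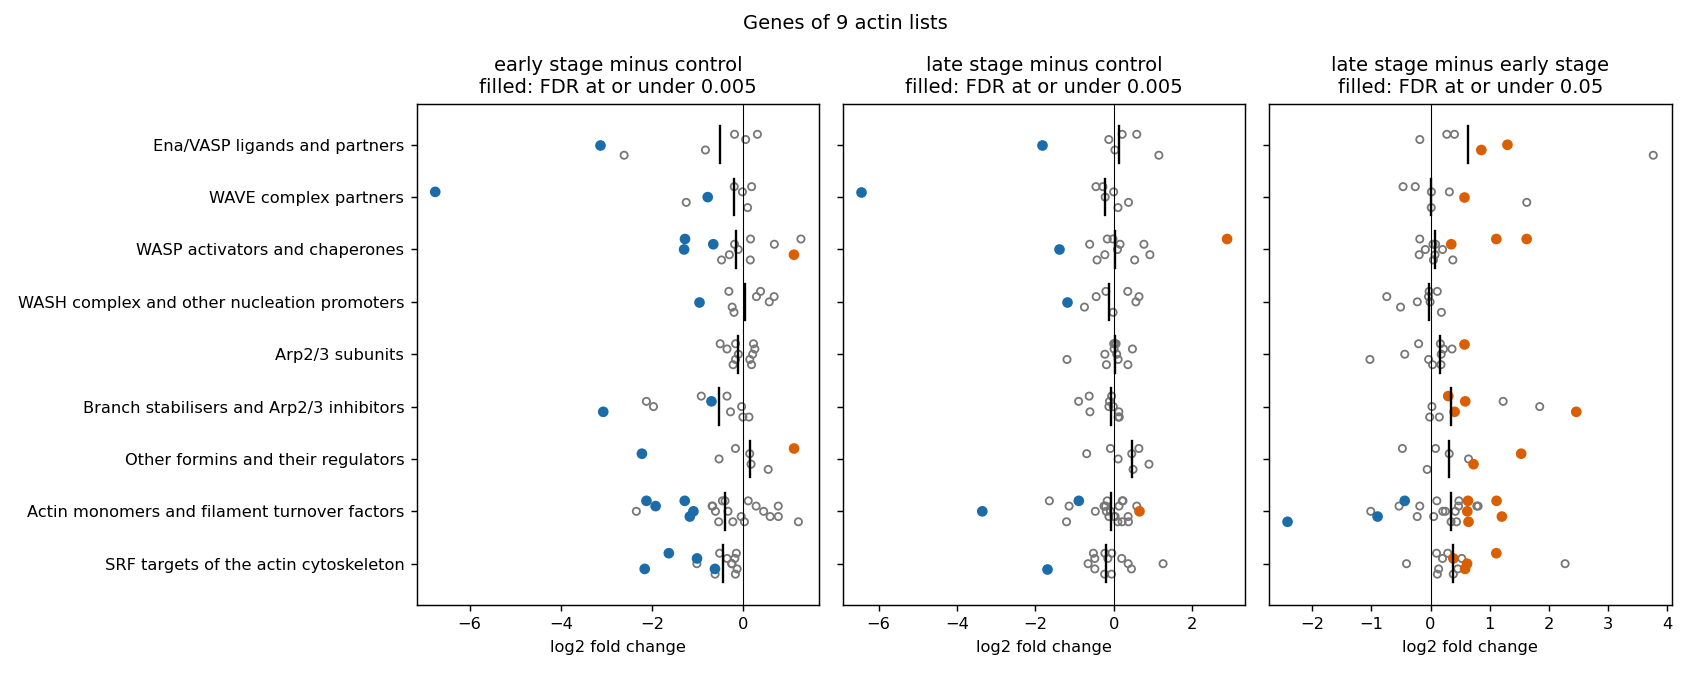
Log2 fold change (horizontal axes) of the tested genes in the 9 actin lists (rows) for early stage against control, late stage against control and late against early stage. Points are genes, filled points passed the FDR named above each panel (blue lower, orange higher), vertical bars are list medians and the line at 0 marks no difference. The filled points of CYFIP2 and CAPG (early stage) and of CYFIP2 and SCIN (late stage) are not read as calls. These genes passed the CPM filter only through the controls. TES, CYFIP2, GMFG and FMNL1 lie farthest left in their rows in the early stage, and in the right panel 22 of the 25 filled points are above 0.

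Actin itself and the factors that turn filaments over were the largest list, with 4 falls and no rise among 23 genes for early stage, and 1 rise and 1 fall for late stage, leaving out CAPG and SCIN. Among all genes, 7.92% rose and 10.1% fell for early stage, and 3.42% and 4.56% for late stage. CAPG, a capping protein, had 38.6 and 23.0 CPM in the controls and 7.52, 7.54 and 6.48 in the early stage lines (log2 fold change -2.12). TMSB10, a thymosin that holds actin monomers, fell from 232 and 145 to 66.7, 42.4 and 42.6 CPM (-1.92, FDR = 0.00182 by edgeR). In the late stage SCIN, a severing protein, was at 2.54 and 1.81 CPM against 29.5 and 14.1 in the controls (-3.35), TMOD3, which caps pointed ends, fell by 0.89 on the log2 scale (FDR = 0.00147), and CFL1, the filament-severing cofilin, rose by 0.66 (FDR = 0.00297), all by edgeR. CAPG and SCIN passed the CPM filter only because of the controls, where they are high, so no p is given for them. The call of TMSB10 was lost without the drug naive, 15 nM or 25 nM line. The late stage call of CFL1 was lost without any 1 of the 7 libraries, and that of TMOD3 without either control, either late stage line or the 25 nM line. Without either control SCIN did not pass the filter. ACTB, beta-actin and highest of the list in mean CPM, had 2125 and 1874 CPM in the controls, 1580.0, 1402 and 1638 in the early stage lines, and 2342 and 2460.0 in the late stage lines (early stage -0.39, FDR = 0.0181). The list's medians were -0.39 and -0.079.

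Many cytoskeletal genes are targets of SRF, which reads the pool of free actin through its MRTF coactivators. Of 14 tested genes of that list, 4 fell in early stage and 1 in late stage lines, where 10.1% and 4.56% of all genes were called lower. All 14 early stage fold changes were below 0 (median -0.43, late stage -0.18), as were those of 5201 of the 10452 genes tested. TPM1, a tropomyosin that coats filaments, fell in both stages, from 76.0 and 55.5 CPM to 11.7, 17.1 and 16.1 and to 17.2 and 24.1 (-2.16, FDR = 0.000669 and -1.70, FDR = 0.00389 by edgeR), and TPM4 fell in the early stage, from 387 and 236 to 104, 88.9 and 114 CPM (-1.63, FDR = 0.00147). FLNA, a filament crosslinker and highest of the list in mean CPM, had 1814 and 1209 CPM in the controls and between 703 and 1167 CPM in the DasR lines (early stage -1.01, FDR = 0.00490). The early stage calls of TPM1, TPM4 and FLNA were lost without the drug naive line, and that of TPM4 also without any early stage line. For FLNA the other alternatives are not given here. The late stage call of TPM1 was lost without any library but that at 10 nM.

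The lines also differed in erythroid RNA. Summed over 12 erythroid markers, CPM was 4067 and 3476 in the controls, 10079, 11468 and 8613 in the early stage lines, and 5934 and 4637 in the late stage lines, with HBG2 the highest in mean CPM over the lines. In the early stage 3 of the 12 passed 0.005, all higher (EPOR, TFRC and HBG1), beside 7.92% of all genes higher. The early stage median log2 fold change was 1.15. In the late stage 1 passed, also higher (TFRC), beside 3.42% of all genes higher, and the median was 0.37. Each of the 12 had 263 counts or more in every line. Of the 8 megakaryocyte markers only ITGA2B passed the filter, and it had 63.9 and 52.5 CPM in the controls, 13.4, 5.96 and 13.2 in the early stage lines, and 56.8 and 99.2 in the late stage lines (early stage -2.44, FDR = 0.00234 by edgeR). Under the filter, ITGB3 had 9.52 and 3.70 CPM in the controls and between 4.77 and 8.11 in the DasR lines, which overlapped, and GP1BA had 5.62 and 7.28 CPM and between 2.34 and 3.31, so the markers did not move together. GP1BB, GP9, PF4 and PPBP stayed under 1 CPM in every line. The part of these lineage differences in the levels of VASP, WAS, DIAPH1 and their partners was not tested.

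Most markers of other cell types were low. The exceptions included KRT19 (between 48.9 and 125 CPM), EPCAM (between 50.9 and 75.3) and LYZ (between 24.6 and 101). Summed CPM of 8 myeloid markers was between 28.2 and 109 and lay mostly in LYZ (tested, early stage 0.23, late stage 0.99), with MPO, ELANE, FCGR3A, CSF1R and S100A8 under 1 CPM in every line. The 8 lymphoid markers summed to between 8.15 and 34.2 CPM, led by CD3D, with 1 tested and not past 0.005, and with CD2, MS4A1, CD79A and CD79B under 1 CPM. No fibroblast marker of 8 passed the filter, their sum was between 6.21 and 19.8 CPM, led by COL1A1, and COL3A1, LUM, PDGFRA and THY1 were under 1 CPM. The 8 epithelial markers summed to 188 and 154 CPM in the controls and between 106 and 120.3 in the DasR lines, nearly all from KRT19 and EPCAM, and the other 6 were under 1 CPM; KRT19 fell in the early stage (-1.04, FDR = 0.00465 by edgeR).

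None of the tested genes beside ENAH on chromosome 1 differed from the controls by as much as ENAH. No other annotated gene overlaps ENAH. Of its 5 nearest protein-coding genes on each side, 9 were in the counts table and 7 passed the filter. LBR, 57.8 kb away, had 347 and 394 CPM in the controls and between 352 and 435 CPM in the DasR lines, and DNAH14, 87.5 kb away, had 50.1 and 56.7 CPM and between 50.0 and 50.9 CPM. On the other side SRP9, at 125 kb, had 336 and 358 CPM in the controls and between 407 and 485 in the DasR lines, with edgeR log2 fold changes of 0.29 (FDR = 0.0324) and 0.37 (FDR = 0.0246). EPHX1 gave 0.41 (FDR = 0.0324) for early and -0.038 for late stage, and TMEM63A -0.068 and -0.026. Farther out, WDR26 gave -0.12 and -0.040. CNIH4, the farthest tested at 1107 kb, was the only neighbor that passed 0.005, and it fell in the early stage, from 33.9 and 41.1 CPM to 22.7, 21.8 and 21.5 (-0.78, FDR = 0.00351 by edgeR, a call lost when either control or any early stage line was left out). CNIH3 and LEFTY1 were at or under 0.374 CPM in every line.

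**Figure D5:**
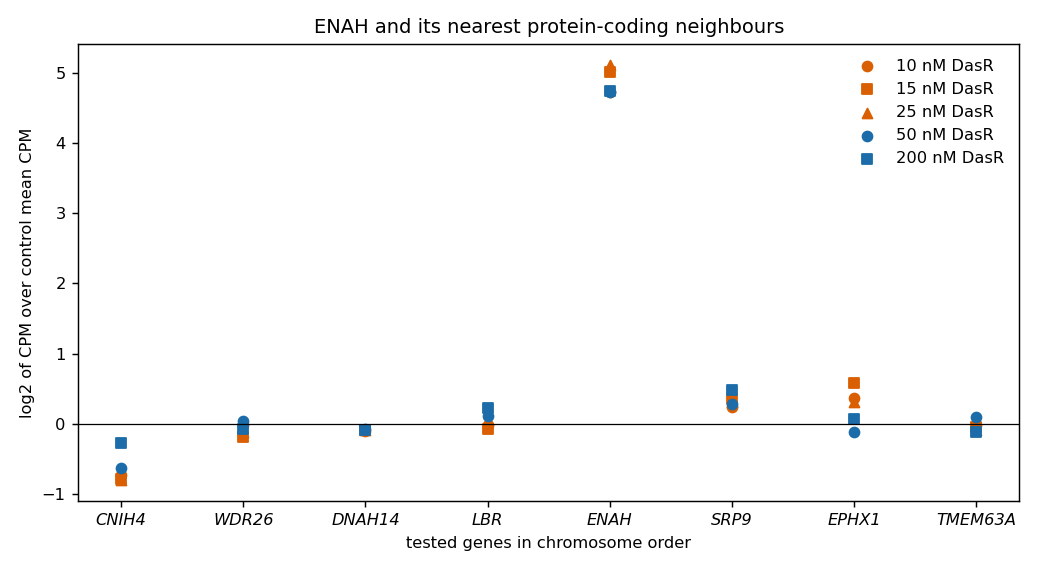
Log2 ratio of CPM in each DasR line to the mean of the 2 controls (vertical axis) for ENAH and the 7 tested neighboring protein-coding genes in chromosome order (horizontal axis, not to scale). Symbols mark the 5 DasR lines. ENAH lies near 5 in all lines, and each neighbor lies within 1 of 0, marked by the horizontal line.

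Genes whose levels ran most like ENAH were found by Pearson's r of log2 CPM over the 7 lines, as a description without a test. The 5 highest were KLF8 (0.999), ACIN1, ZNF343 and WNK2 (each 0.998) and COMMD9 (0.997), and 3 of these 5 were also among the 5 highest with a prior count of 0.5 and a filter of 1 CPM. KLF8, a zinc finger transcription factor, had 1.76 and 1.50 CPM in the controls and between 13.1 and 17.2 in the DasR lines. ACIN1 had 222 and 225 CPM in the controls and between 290.3 and 299.7 in the DasR lines, so that r follows the shape over lines and not the size of the difference. The lowest were SCN4A (-0.999), ZNF521 and ZBED9 (each -0.997). ZNF521, a zinc finger factor of immature blood cells, had 11.0 and 18.5 CPM in the controls and at most 0.0480 CPM in any DasR line. The 7 lines form a control and a DasR cluster for ENAH, and 1005 of the other genes tested (9.62%) had r over 0.9 and 1018 (9.74%) under -0.9. Among the members r was 0.84 for WASF1, 0.41 for EVL, -0.34 for VASP, -0.35 for DIAPH1, -0.37 for WAS, -0.62 for WASF2, -0.67 for WASL and -0.87 for DIAPH3.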

How the data were processed

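The 7 libraries were made with a directional kit after ribosomal RNA depletion (GEO's molecule label reads polyA) and read at 75 bases. The authors used STAR on hg19, and the deposited table holds raw counts for each gene ID, per the file headers and the study's methods. The submitters' processing notes name FastQC, featureCounts and edgeR, with versions not given in the sources used here, and whether counting used strand is not stated. Both deposited tables of comparisons hold the authors' fold changes, mean log CPM, p-values and FDR, which were not used. From them came gene symbols and exon lengths (the other deposited unit). The number of columns of per-sample values left unused was 0. A check for libraries deposited more than once found none (chi-square 15.5 to 48.3 per degree of freedom between lines of 1 group).

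Counts were scaled by TMM, genes reaching 10 CPM in 2 or more libraries were kept (10452), and groups were compared by edgeR 4.0.16 (glmQLFit, glmQLFTest) in R 4.3.3, with all 7 libraries in 1 fit and FDR values by the Benjamini-Hochberg method. The biological coefficient of variation was 0.161. CPM in the text is over the library total. Alternatives were 2 other scalings, DESeq2 1.42.0, voom in limma 3.58.1, 2 other filters, a fit of only the groups compared, an FDR of 0.05, and leaving out each library in turn.

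The members and lists were chosen with earlier results of these data known. The text names the 10 members, up to 2 genes per list, comparison and direction with the largest change past the threshold, the most abundant gene of each list, marker genes, the nearest neighbors of ENAH, and the 5 genes most and 3 least like ENAH (log2 CPM with a prior count of 2). Positions and transcripts are from GENCODE version 44 lifted to GRCh37. WASH1, ACTB, HBG1, HBG2 and other genes with near-identical copies can lose or gain reads in counting. The methods were tested on simulated data. Fold changes of genes at 1 to 3 counts in a line, as CYFIP2 at 25 nM, carry large counting error.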

Additional observations from a re-analysis of the deposited data

Results flagged for a closer look

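Early and late stage lines lay on opposite sides of both controls for 3 of the tested members and 12 of the tested genes of the actin lists. The late minus early log2 fold change tests the difference between the 2 effects, and no gene passed an FDR of 0.005 there by edgeR (quasi-likelihood F-test, Benjamini-Hochberg adjusted). For VASP it was 1.14 and for DIAPH1 1.20 (FDR = 0.0167 for each), while for WAS it was 1.51 (FDR = 0.180). Below the controls in the early stage and above in the late stage were also ACTB, at 0.63 (FDR = 0.0182), and the crosslinker ACTN4, at 0.62 (FDR = 0.0167). The adapter FYB, which binds Ena/VASP proteins in blood cells, had the largest difference, 3.77 (FDR = 0.0820), with 127 and 124 CPM in the controls, 6.87, 0.646 and 56.0 in the early stage lines, and 206 and 362 in the late stage lines. FHL2, an SRF target, gave 2.28 (FDR = 0.0850), and NCKAP1L, the blood cell form of NCKAP1, 1.63 (FDR = 0.116). In the 15 nM line WAS, FYB, FHL2 and NCKAP1L were each at their lowest of the 7 lines. Smaller differences of the same direction were 0.41 for CORO1B (FDR = 0.0330), 0.39 for the coactivator MKL1 (FDR = 0.0394), 0.36 for ACTR3 (FDR = 0.0511) and 0.35 for TRIP10 (FDR = 0.0450). For VASP, DIAPH1, ACTB, ACTN4, CORO1B, MKL1 and TRIP10 the FDR rose above 0.05 under at least 1 alternative.

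The opposite order, above the controls in the early stage and below in the late stage, was seen among tested genes for TMOD2, at -2.42 (FDR = 0.0167), WHAMM, at -0.74 (FDR = 0.0635), and CYFIP1, at -0.46 (FDR = 0.0594). TMOD2, a pointed end cap, had 32.7 and 35.5 CPM in the controls, 49.3, 116 and 75.2 in the early stage lines, and 13.3 and 16.8 in the late stage lines. Over all genes tested, 2.04% had the first order and 1.79% the second.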

How the results depend on the processing

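ENAH kept its direction and size under all alternatives, with log2 fold changes between 4.81 and 5.05 for early stage and between 4.58 and 4.82 for late stage against control. The median of all genes lay between -0.013 and 0.021 on the log2 scale under the other scalings. Leaving out 1 library at a time gave between 187 (without the drug naive line) and 2074 genes past the threshold for early stage, between 30 (the same line) and 601 for late stage, and between 0 and 200 (without the 50 nM line) for late against early stage. Among members besides ENAH it gave between 0 and 2 for early stage and 0 for both others. Among list genes it gave between 1 and 25, between 0 and 7, and 0. At an FDR of 0.05, 4865 genes, 4 members and 53 list genes passed for early stage, 3542, 1 and 33 for late stage, and 1328, 2 and 25 for late against early stage. DESeq2 at 0.005 gave 3548, 3 and 43, then 2503, 1 and 26, then 1135, 2 and 21. Voom gave 3 members beside 1918 genes for early stage. Fits of only the groups compared gave 2 members beside 2098 genes for early stage, and 335 genes and 3 list genes for late stage. ENAH ranked 3 rather than 5 by CPM without length. Late stage calls of the 7 named list genes other than CYFIP2 and SCIN were each lost without at least 1 library.

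Values near 0 changed sign. With 1 library left out, early stage log2 fold changes ranged from -0.034 (without the DMSO line) to 0.14 for EVL and from -0.10 to 0.023 (without the DMSO line) for LBR. Those of late stage ranged from -0.23 to 0.024 for WASF2 and from -0.16 to 0.058 for WDR26 (both highest without the drug naive line), from -0.14 to 0.042 for EPHX1 (highest without the 50 nM line) and from -0.14 to 0.083 for TMEM63A (highest without the 200 nM line). With no filter beyond 10 counts in all, late stage WDR26 was 0.0091, EPHX1 0.012 and TMEM63A 0.023, which was 0.0082 with the 1 CPM filter. The cause of these changes was not tested. Leaving out a library leaves fewer degrees of freedom, and a group left with 1 line is assumed to vary like the others. No paired analysis was possible because the labels give no replicate numbers. DIAPH2 was not tested because of the 10 CPM filter.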

Other observations

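Several list genes under the CPM filter, chosen after their values were seen, had far more counts in some lines than in others. ROBO1, a guidance receptor that binds Ena/VASP proteins, had 2 and 9 counts in the controls, 139, 258 and 77 in the 10, 15 and 25 nM lines, and 15 and 6 in the 50 and 200 nM lines. PFN2, a profilin, had 4 counts in each control, 60, 181 and 144 in the early stage lines, and 11 and 24 in the late stage lines. DAAM2, the relative of DAAM1, had 16 and 39 counts in the controls and 0 in all 5 DasR lines, where 3 counts would be at most 0.150 CPM. None of these was tested.

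PFN1, the abundant profilin that Ena/VASP proteins and formins feed on, also chosen after its values were seen, had 301 and 364 CPM in the controls, 424, 411 and 419 in the early stage lines, and 508 in each late stage line. Its edgeR log2 fold changes were 0.32 (FDR = 0.0239) and 0.59 (FDR = 0.00523), neither past 0.005. The tropomodulins TMOD1, TMOD2 and TMOD3 were among the 25 list genes called between late and early stage lines at an FDR of 0.05. They were the only ones lower in the late stage, at -0.90 for TMOD1, -2.42 for TMOD2 and -0.44 for TMOD3 (edgeR FDR = 0.0413, 0.0167 and 0.0291). The call of TMOD2 was lost under at least 1 alternative, with log2 fold changes between -2.67 and -2.06 over all of them. For TMOD1 and TMOD3 the alternatives are not given here, so their calls cannot be taken to have held.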
